A study of Homo sapiens with 6 samples.

Results

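The genes described here encode the machinery that brings proteins into mitochondria and the proteases that process and clear them once they are there. They were listed by name, with earlier results of these data known, as TOM and TIM translocase components, processing peptidases, and matrix and inner membrane proteases. There are 33 of them among the 26485 genes of the count table, and 32 had enough counts to be tested. The counts come from THP1 cells, a human acute monocytic leukemia line, exposed for 6 h to withaferin A (WFA), a steroidal lactone from the plant Withania somnifera, or to the DMSO vehicle. Each of the 2 groups had 3 libraries, from independent experiments on the same unmodified cell line, so the spread between libraries is that of repeated cultures and not of patients. The methods give the WFA concentration as 1 μM, whereas the labels give 1 mM, and the former is taken here.

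Libraries held between 11006035 and 13872810 counts, and 12854 genes passed the filter on low counts. Levels are given as CPM, a count scaled by the size of its library after TMM normalization, so that libraries can be compared. Of 10 markers of monocytic leukemia cells, 9 were tested, of which 4 fell (44.4%) and 1 rose, against 24.7% and 25.8% of all tested genes. CD33, CD14, CSF1R and SPI1 fell to 55.5%, 43.0%, 76.0% and 79.0% of the DMSO level, and CD68 rose to 129%. The SPI1 groups overlapped. LYZ lay between 1381 and 2090 CPM over the 6 libraries, while MEIS1 had at most 1 count in each. Summed over the list, these markers lay between 2393 and 2915 CPM with DMSO and between 2166 and 2935 CPM with WFA. Most of that sum was LYZ in each library. Of 10 markers of other cell types, the T-cell genes CD3E and CD3D, the B-cell gene MS4A1, the red-cell genes HBB and HBA1, EPCAM of epithelia and ALB of liver had at most 8 counts in any library. Their list summed to between 355.1 and 401.7 CPM with DMSO and between 316.5 and 335.5 CPM with WFA, nearly all of it from PECAM1, which monocytic cells also express. COL1A1, a fibroblast collagen, rose from at most 0.833 CPM to at least 8.54 CPM. The part of these markers in the results below was not tested.

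Most mitochondrial proteins are made in the cytosol and cross the outer membrane through the TOM complex. Small TIM chaperones then carry hydrophobic proteins across the intermembrane space to the TIM22 translocase, while proteins with a presequence pass through the TIM23 translocase and are pulled into the matrix by an ATP-driven motor. The mitochondrial processing peptidase (MPP) removes the presequence, and ATP-dependent proteases of the matrix and inner membrane degrade proteins that are misfolded, damaged or no longer needed.

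With WFA, transcripts of the import machinery were lower and the matrix protease LONP1 was higher. Of the 32 tested genes, 18 fell (56.2%), 1 rose and 13 did not pass the test (edgeR, adjusted p under 0.05). Over all 12854 genes tested, 24.7% fell and 25.8% rose by the same rule. The median log2 fold change was -0.35 over the 32 genes and 0.02 over all tested genes. Within experiments 1, 2 and 3 the median of the 32 differences was -0.33, -0.33 and -0.34. Summed over all 33 genes, the level was 3143, 3175 and 3041 CPM in the DMSO libraries and 2561, 2701 and 2477 CPM in the WFA libraries, so every WFA library lay below every DMSO library. In whole cultures, fewer cells of a type and less RNA of these genes per cell cannot be told apart. CPM is relative to the library, so the amount of RNA per cell was not measured.

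**Figure D1:**
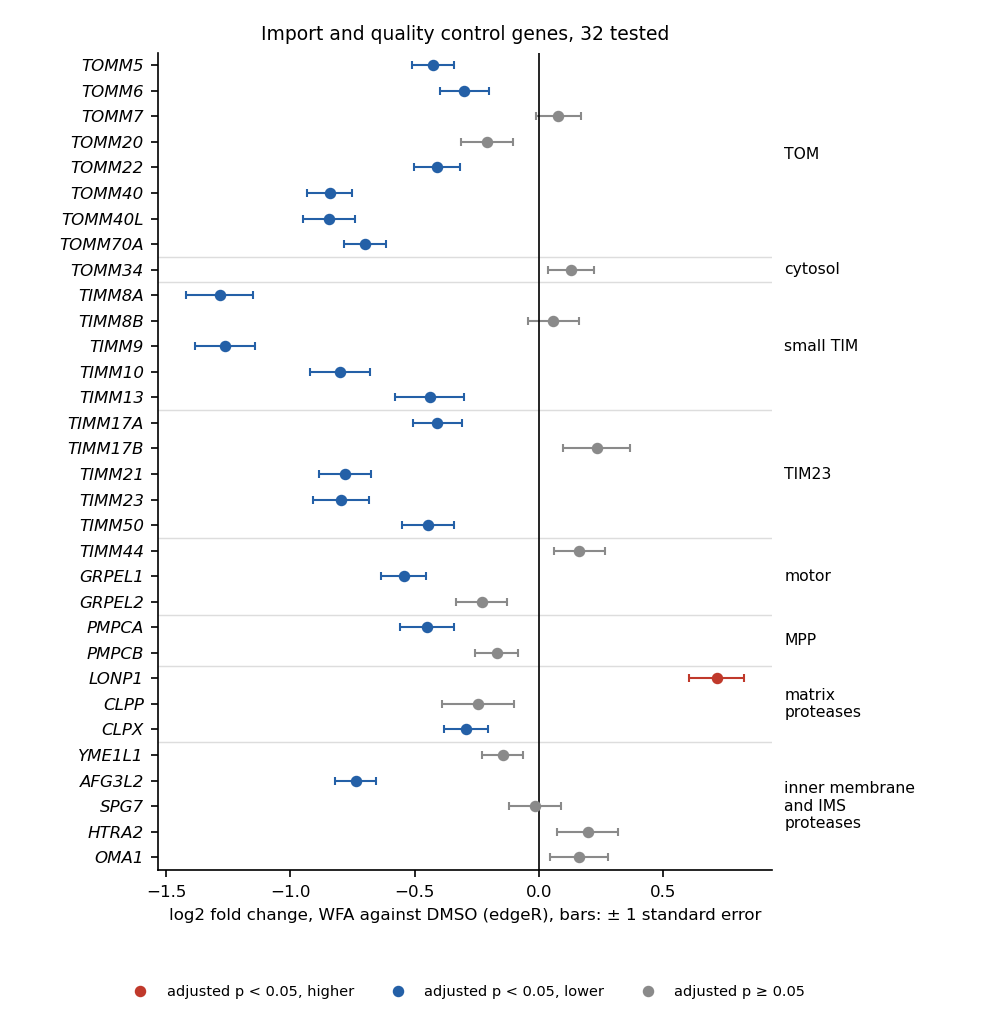
Log2 fold change of each of the 32 tested genes, WFA against DMSO, from edgeR, with bars of ±1 standard error and genes grouped by their place in import. Blue points mark the 18 genes that fell, the red point marks LONP1, and grey points mark the 13 genes that did not pass the test; 6 of 8 points of the TOM block, 4 of 5 of the small TIM block and 4 of 5 of the TIM23 block are blue, against 2 of the 8 proteases.

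Among the translocase, motor and co-chaperone genes, 15 of 22 fell (68.2%) and 7 did not pass the test, with a median log2 fold change of -0.43. Among the 8 proteases of the matrix, inner membrane and intermembrane space, 2 fell (25.0%), which is close to the 24.7% of all tested genes, and 1 rose, with a median of -0.08. In 20 of the 32 genes every WFA library lay below every DMSO library, and in 2 genes, LONP1 and TOMM34, every WFA library lay above. Over all tested genes, 28.5% were lower and 29.6% were higher without overlap between the groups. The 20 genes were the 18 that fell together with PMPCB and YME1L1. An exact permutation test with 3 libraries against 3 cannot give a p-value under 0.1.

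**Figure D2:**
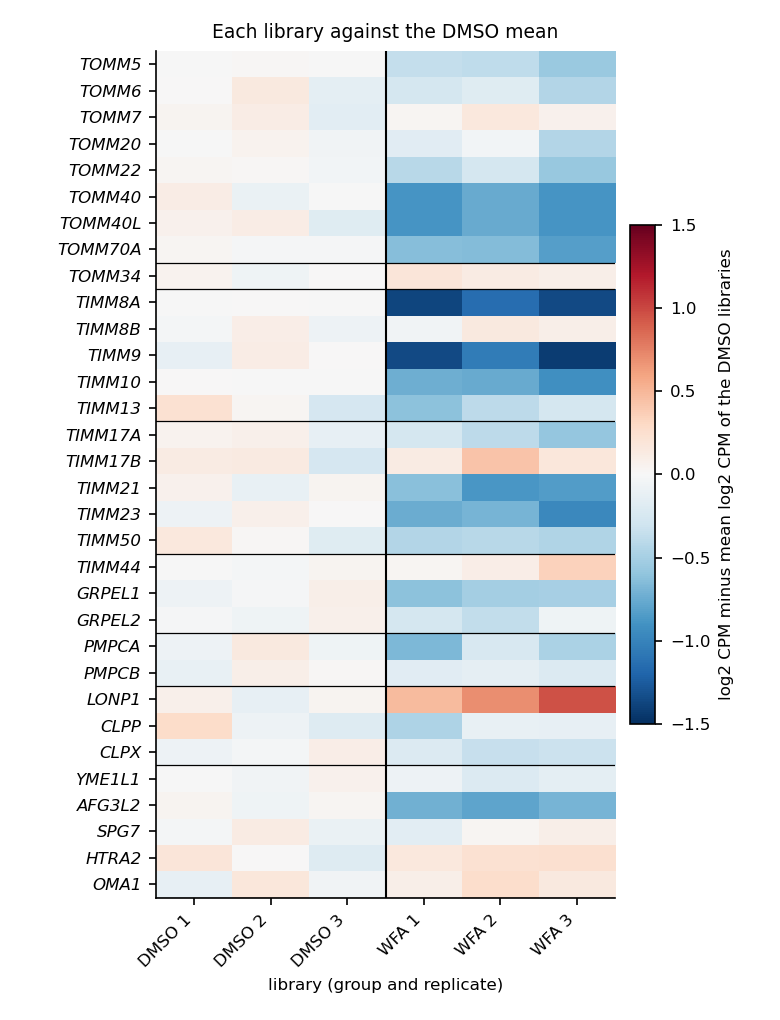
Heat map of log2 CPM in each of the 6 libraries minus the mean log2 CPM of the DMSO libraries, 1 row per gene, with black lines between roles. The WFA columns are blue for TIMM8A, TIMM9, TOMM40 and AFG3L2 in all 3 libraries and red for LONP1, while rows such as SPG7 and TIMM8B stay near white.

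The 8 genes of the TOM complex held the largest share of the counts of the set. They summed to 1654, 1692 and 1567 CPM with DMSO and to 1322, 1413 and 1160 CPM with WFA. Of the 8, 6 fell (75.0%, against 24.7% of all tested genes) and 2 did not pass the test. TOMM40 encodes the beta-barrel channel through which nearly all precursors pass. It lies on chromosome 19 (44891220 to 44903689, plus strand, hg38). Its level was 90.8, 78.2 and 83.7 CPM in the DMSO libraries and 45.6, 49.8 and 45.6 CPM in the WFA libraries, with no overlap. The mean fell from 84.2 ± 6.33 to 47.0 ± 2.42 CPM (SD, n = 3), a log2 fold change of -0.84 (SE 0.09, edgeR adjusted p = 2.85e-06).

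TOMM40L, a paralog of the channel gene on chromosome 1 (161225939 to 161230744, plus strand), also fell. It was at 56.1, 57.9 and 47.4 CPM with DMSO and at 28.998, 31.8 and 29.1 CPM with WFA, a log2 fold change of -0.84 (SE 0.11, edgeR adjusted p = 1.06e-05). All 3 WFA libraries lay well below the lowest DMSO library. The exons of TOMM40L overlap those of NR1I3 on the other strand over 22.3% of their length, and the library kit does not mark strand, so reads there cannot be assigned to either gene.

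TOMM70A, now called TOMM70, encodes the receptor that docks chaperone-bound carrier precursors. It lies on chromosome 3 (100363431 to 100401398, minus strand). Its level was 207, 199 and 200.2 CPM with DMSO and 130.04, 129 and 114 CPM with WFA, again without overlap, and its log2 fold change was -0.70 (SE 0.08, edgeR adjusted p = 7.6e-06). TOMM22, the central receptor and organizer of the complex, went from 130.4, 129.98 and 124 CPM to 96.4, 107 and 86.4 CPM (log2 fold change -0.41, edgeR adjusted p = 0.00161). TOMM20, the receptor for presequences, was at 669, 697 and 647 CPM with DMSO and at 595, 653 and 494 CPM with WFA, so the second WFA library lay within the DMSO range. Its log2 fold change of -0.21 did not pass the test (edgeR adjusted p = 0.112), but with the replicate number as a block it was -0.22 and did (edgeR adjusted p = 0.0145). The block fit called more genes of the whole table, 3877 higher and 3708 lower against 3311 and 3178 without it.

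Of the small TOM subunits, which steady the complex around the channel, 2 of 3 fell, against 24.7% of all tested genes. TOMM5 was at 176, 178 and 175 CPM with DMSO and at 138, 135 and 120 CPM with WFA, a log2 fold change of -0.43 (by edgeR, adjusted p = 0.000653). TOMM6 was at 214, 235 and 193 CPM and then at 177, 188 and 157 CPM, a log2 fold change of -0.30 (by edgeR, adjusted p = 0.0193). That call was lost without DMSO library 1, without DMSO library 2 and without WFA library 3, with log2 fold changes of -0.30, -0.24 and -0.23. TOMM7 did not pass the test, with a log2 fold change of 0.08 (by edgeR, adjusted p = 0.494) that was -0.0048 when libraries were scaled by their total counts. Exons of TOMM6 overlap another gene model on the same strand over 93.7% of their length, and those of TOMM5 overlap a pair of such models over 57.1% and 31.0%. Of the words of 50 bases in TOMM5 and TOMM6, 83.1% and 100.0% also occur in another gene, so how reads were divided there is uncertain. Per kilobase of exon, the scale on which genes can be compared, TOMM6, TOMM20 and TOMM5 stood highest of the set with 336, 198 and 194 CPM per kb in the DMSO libraries, and TIMM8A stood lowest of the genes with counts with 5.59 CPM per kb. TOMM34, a cytosolic co-chaperone that keeps precursors soluble, did not pass the test, with a log2 fold change of 0.13 (by edgeR, adjusted p = 0.261), although its WFA libraries, at 46.4, 44.9 and 43.6 CPM, lay above its DMSO libraries, at 42.7, 39.2 and 41.3 CPM.

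The largest falls of the set were in the small TIM genes, whose products form ring-shaped chaperones in the intermembrane space. The 5 genes summed to 152.9, 159.2 and 146.2 CPM with DMSO and to 91.24, 104.8 and 97.24 CPM with WFA. Of the 5, 4 fell (80.0%, against 24.7% of all tested genes). TIMM9 and TIMM10 encode the subunits of the main ring. The promoter stretches of both are shown because these partners fell together and hold different motifs. They are RefSeq sequence of GRCh38.p14 read 5′ to 3′ on the minus strand, upstream of annotated exons. The TIMM9 stretch is chr14:58427638-58427683, positions -152 to -107 relative to the RefSeq start, with a match to the core of the NRF1 motif (GCATGCGC) in capitals. The TIMM10 stretch is chr11:57530804-57531004, positions -250 to -50, with an outward pair of heat shock half-sites (TTCNNGAA) in capitals.
TIMM9: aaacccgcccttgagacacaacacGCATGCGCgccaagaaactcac
TIMM10: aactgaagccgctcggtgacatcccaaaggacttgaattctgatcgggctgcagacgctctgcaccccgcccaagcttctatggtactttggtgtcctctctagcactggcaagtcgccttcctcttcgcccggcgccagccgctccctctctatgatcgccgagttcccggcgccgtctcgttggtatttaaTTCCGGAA

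TIMM9, on chromosome 14 (58408494 to 58427614, minus strand), was at 44.0, 51.5 and 48.2 CPM with DMSO and at 18.7, 23.2 and 17.8 CPM with WFA. All 3 WFA libraries lay far below the lowest DMSO library. The log2 fold change was -1.26 (SE 0.12, edgeR adjusted p = 6.8e-07), which is 41.6% of the DMSO level. Its exons overlap KIAA0586 on the other strand over 15.1% of their length. TIMM10, on chromosome 11 (57528463 to 57530803, minus strand), was at 23.3, 23.1 and 23.0 CPM with DMSO and at 13.9, 13.7 and 12.2 CPM with WFA. This was 57.4% of the DMSO level, with a log2 fold change of -0.80 (SE 0.12, edgeR adjusted p = 5.73e-05).

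TIMM8A encodes the subunit that is mutated in the X-linked deafness-dystonia syndrome and forms a second ring with TIMM13. It lies on chromosome X (101345659 to 101349196, minus strand). It had the largest fall of the set, from 18.993, 19.19 and 18.997 CPM to 7.35, 8.62 and 7.44 CPM, which is 41.0% of the DMSO level (log2 fold change -1.29, SE 0.13, edgeR adjusted p = 1.83e-06). The spread among its DMSO libraries was small, with a mean of 19.1 ± 0.113 CPM (SD, n = 3). Its paralog TIMM8B was at 33.6, 36.9 and 32.6 CPM with DMSO and at 33.0, 37.9 and 36.5 CPM with WFA. The groups of TIMM8B overlapped, and it did not pass the test (log2 fold change 0.06, SE 0.10, edgeR adjusted p = 0.659). The value of TIMM8B was -0.025 when libraries were scaled by total counts. Over 42.7% of its exon length TIMM8B overlaps NKAPD1 on the other strand. TIMM13 was at 33.0, 28.6 and 23.5 CPM with DMSO and at 18.3, 21.3 and 23.4 CPM with WFA. The lowest DMSO and the highest WFA library of TIMM13 nearly touched. Its log2 fold change was -0.44 (SE 0.14, edgeR adjusted p = 0.0162), but within experiments 1, 2 and 3 the difference was -0.85, -0.42 and -0.009. Its exons overlap TMPRSS9 on the other strand over 15.9% of their length. The TIMM13 call was lost without DMSO library 1 and without WFA library 1, with log2 fold changes of -0.32 and -0.35.

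TIMM22, the channel of the carrier translocase, was listed at 0 in all 6 libraries and was not tested. PAM16, DNAJA3 and FUNDC1 of the lists below were also at 0 in all 6, and whether such a 0 comes from the annotation, the counting or the cells is not known. In the TIM23 translocase, 4 of 5 genes fell (80.0%, against 24.7% of all tested genes). TIMM23 encodes its channel and lies on chromosome 10 (45972449 to 46003734, plus strand). It was at 34.9, 38.9 and 36.9 CPM with DMSO and at 22.1, 22.7 and 18.9 CPM with WFA, a log2 fold change of -0.80 (SE 0.11, edgeR adjusted p = 3.18e-05) with no overlap. Of 1173 words of 50 bases in its exons, 199 also occur in another gene, the near copy TIMM23B, so some of its reads cannot be placed. TIMM21, which links TIM23 to the TOM complex and to the respiratory chain, lies on chromosome 18 (74148511 to 74160530, plus strand). It was at 51.8, 45.6 and 50.9 CPM and then at 31.9, 26.9 and 27.5 CPM, a log2 fold change of -0.78 (SE 0.11, edgeR adjusted p = 2.29e-05). TIMM50, the receptor that hands presequences to the channel, had a log2 fold change of -0.44 (by edgeR, adjusted p = 0.00238), with 55.6, 50.5 and 43.8 CPM against 36.8, 37.1 and 36.3 CPM.

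TIMM17A and TIMM17B are alternative subunits of the TIM23 core. TIMM17A was at 108, 111 and 96.1 CPM with DMSO and at 87.6, 79.7 and 70.3 CPM with WFA. It fell, with a log2 fold change of -0.41 (SE 0.10, edgeR adjusted p = 0.00273). TIMM17B was at 21.7, 22.0 and 16.7 CPM with DMSO and at 21.7, 26.9 and 22.5 CPM with WFA, a log2 fold change of 0.23 that did not pass the test (SE 0.14, edgeR adjusted p = 0.167). The TIMM17B groups overlapped.

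Of the 3 genes of the import motor and its exchange factors, 1 fell (33.3%, against 24.7% of all tested genes). GRPEL1, the main nucleotide exchange factor of the matrix HSP70, was at 63.0, 65.9 and 70.8 CPM with DMSO and at 43.3, 46.7 and 46.9 CPM with WFA. Its log2 fold change was -0.54 (SE 0.09, edgeR adjusted p = 0.000162). GRPEL2, its paralog, was at 47.2, 45.5 and 50.2 CPM with DMSO and at 39.7, 36.9 and 45.5 CPM with WFA. The groups overlapped, and the log2 fold change of -0.23 did not pass the test (SE 0.10, edgeR adjusted p = 0.0775), but did with the replicate block (-0.23, edgeR adjusted p = 0.0291). TIMM44, which tethers the HSP70 to the channel, had a log2 fold change of 0.16 (by edgeR, adjusted p = 0.203).

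The subunits of MPP were both lower in every WFA library, as were 28.5% of all tested genes, but only PMPCA passed the test. PMPCA, which recognizes the presequence, was at 94.8, 110.2 and 95.5 CPM with DMSO and at 62.8, 84.7 and 72.1 CPM with WFA, a log2 fold change of -0.45 (SE 0.11, edgeR adjusted p = 0.00286). PMPCB, the catalytic subunit, was at 81.8, 93.4 and 89.4 CPM with DMSO and at 78.3, 80.1 and 76.7 CPM with WFA, a log2 fold change of -0.17 (SE 0.09, edgeR adjusted p = 0.111). Its exons overlap DNAJC2 on the other strand over 12.8% of their length.

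LONP1, the matrix protease that degrades oxidized and misfolded proteins, was the 1 gene of the set that rose. Its promoter stretch is shown because it carries the same core as TIMM9, although the genes moved in opposite directions. The stretch is chr19:5720573-5720676 on the minus strand, positions -224 to -121 relative to the RefSeq start, and the capitals mark matches to the NRF1 core, of which the first 2 overlap on opposite strands.
LONP1: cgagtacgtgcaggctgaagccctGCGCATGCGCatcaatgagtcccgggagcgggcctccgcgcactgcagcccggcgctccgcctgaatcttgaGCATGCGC

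LONP1 lies on chromosome 19 (5691834 to 5720572, minus strand). It was at 135, 117 and 131 CPM in the DMSO libraries and at 177, 206 and 247 CPM in the WFA libraries. The lowest WFA library lay above the highest DMSO library, and the WFA libraries varied more, with means of 128 ± 9.57 and 210 ± 34.8 CPM (SD, n = 3). The level was 164% of that with DMSO (log2 fold change 0.72, SE 0.11, edgeR adjusted p = 8.36e-05). Within experiments 1, 2 and 3 the log2 difference was 0.40, 0.82 and 0.91. The summed level of the 3 matrix protease genes was higher with WFA, at 260.4, 287.3 and 328.9 CPM against 235.1, 213.8 and 233.6 CPM. Only LONP1 was higher in this sum. The mean of CLPX went from 77.3 to 63.1 CPM and that of CLPP from 22.6 to 19.1 CPM.

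CLPX and CLPP encode the unfolding and the cutting subunit of the other matrix protease. CLPX was at 73.3, 75.9 and 82.6 CPM with DMSO and at 66.8, 60.5 and 61.9 CPM with WFA. It fell, with a log2 fold change of -0.29 (SE 0.09, edgeR adjusted p = 0.0126), and the call was lost without DMSO library 3 (log2 fold change -0.24). CLPP was at 27.0, 21.2 and 19.6 CPM with DMSO and at 16.3, 20.7 and 20.5 CPM with WFA. The first experiment alone set CLPP apart, with a log2 difference of -0.73 against -0.03 and 0.06 in the others, and the log2 fold change of -0.24 did not pass the test (SE 0.15, edgeR adjusted p = 0.179).

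Of the 5 proteases of the inner membrane and intermembrane space, AFG3L2 fell and 4 did not pass the test. AFG3L2 forms the m-AAA protease, which faces the matrix, alone or together with SPG7 (paraplegin). It lies on chromosome 18 (12328944 to 12377314, minus strand) and overlaps TUBB6 on the other strand over 19.6% of its exon length. AFG3L2 was at 177, 165 and 176 CPM with DMSO and at 105, 99.7 and 107 CPM with WFA, which is 60.0% of the DMSO level (log2 fold change -0.74, SE 0.08, edgeR adjusted p = 3.14e-06). The libraries of each group lay close together, and the groups were far apart. SPG7 was at 41.2, 45.6 and 39.2 CPM with DMSO and at 37.4, 42.8 and 44.7 CPM with WFA. Its groups overlapped, with a log2 fold change of -0.01 (SE 0.10, edgeR adjusted p = 0.924). Without DMSO library 2 and without WFA library 1 the SPG7 value was 0.04 and 0.06.

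YME1L1, the i-AAA protease that faces the intermembrane space, had a log2 fold change of -0.14 (by edgeR, adjusted p = 0.161), with DMSO libraries between 190.2 and 205 CPM and WFA libraries between 171 and 187 CPM. OMA1, a stress-activated protease that cleaves OPA1, had a log2 fold change of 0.16 (by edgeR, adjusted p = 0.267). HTRA2, a serine protease of the intermembrane space that can be released in apoptosis, had a log2 fold change of 0.20 (by edgeR, adjusted p = 0.197). The exons of HTRA2 overlap LOXL3 over 26.4% and AUP1 over 20.4% of their length on the other strand. None of these 3 genes passed the test. The groups of YME1L1 did not overlap, while those of OMA1 and HTRA2 did.

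Paralogs and complex partners were compared by the log2 ratio of their counts within each library, which does not depend on how libraries are scaled. The ratio separated the groups without overlap in 5 of 7 pairs, each with the smallest p-value the exact two-sided permutation test can give (p = 0.1, adjusted p = 0.14 over the 7 pairs), so none passed the threshold. Singly, 28.5% of all tested genes were lower and 29.6% higher without overlap. The share among other gene pairs was not computed. The TIMM8A/TIMM8B ratio was -0.82, -0.94 and -0.78 with DMSO and -2.16, -2.13 and -2.29 with WFA, a change of -1.35. For AFG3L2/SPG7 it was 2.10, 1.86 and 2.16 with DMSO and 1.48, 1.22 and 1.25 with WFA, a change of -0.72. For TIMM17A/TIMM17B it was 2.32, 2.34 and 2.52 with DMSO and 2.01, 1.56 and 1.64 with WFA, a change of -0.65. In these 3 pairs the share of the first partner was lower in every WFA library than in any DMSO library. Smaller changes were seen for GRPEL1/GRPEL2 (-0.31) and PMPCA/PMPCB (-0.29). The TOMM40/TOMM40L ratio was 0.65 ± 0.20 with DMSO and 0.65 ± 0.004 with WFA (SD, n = 3), a change of -0.002 (exact permutation p = 1.0). Within experiments 1 to 3 the TOMM40/TOMM40L change lay between -0.17 and 0.21. The CLPX/CLPP ratio changed by -0.06 (exact permutation p = 0.9), and by between -0.48 and 0.60 within experiments.

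**Figure D3:**
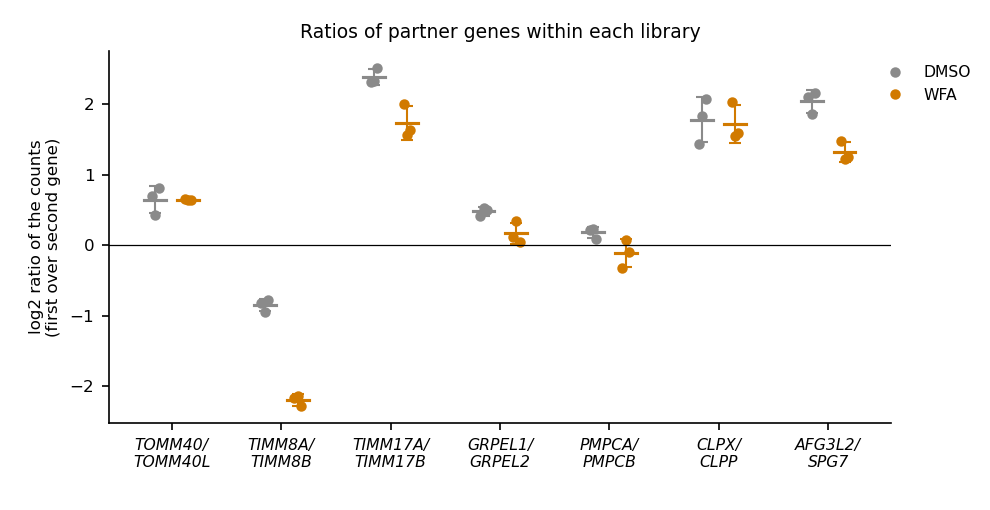
Log2 ratio of the counts of 2 partner genes in each library, DMSO in grey and WFA in orange, with the mean and ± SD of the 3 libraries. The WFA points lie below the DMSO points for TIMM8A/TIMM8B, TIMM17A/TIMM17B, GRPEL1/GRPEL2, PMPCA/PMPCB and AFG3L2/SPG7, and overlap them for TOMM40/TOMM40L and CLPX/CLPP.

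The motifs searched in promoters were found in genes that fell, in LONP1 and in genes that did not pass the test. RefSeq windows, from 250 bases before to 50 bases after the start, were found for 28 of the 33 genes, and were searched on both strands. These genes had 31 windows, and a gene was named if any of its windows matched. The percentages are shares of windows, so they are not the same measure. The NRF1 core (GCATGCGC) was in the windows of LONP1, TIMM9 and TOMM7, against 4.70% of the windows of all tested genes. The E-box CACGTG was in those of LONP1, TIMM10, TIMM8A and TOMM20, against 9.25%, in LONP1 and TIMM10 outside the stretches printed above. The outward heat shock pair was in TIMM10 and TOMM70A, against 6.42%, and the inward pair (GAANNTTC) was in none of the 28, against 4.87%. The C/EBP-ATF response element (TGATGNAA) was in PMPCB and TIMM22, against 1.98%. The antioxidant response element (TGACNNNGC) was in OMA1, SPG7, TIMM13, TIMM17B and TIMM21, against 14.5%. A match is a description of these letters only, and their absence says nothing of a factor outside the window.

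Other genes of import and of mitochondrial proteostasis were read from the same fit, as lists named apart from the set. Of 18 other import components that were tested, 8 fell (44.4%) and 3 rose, against 24.7% and 25.8% of all tested genes. CHCHD4, which oxidizes small TIM proteins as they enter the intermembrane space, was at 29.05, 31.6 and 28.995 CPM with DMSO and at 14.3, 16.03 and 12.5 CPM with WFA (log2 fold change -1.06, edgeR adjusted p = 5.23e-06). Among the small TIM genes, TIMM8A, TIMM9, TIMM10 and TIMM13 fell as well. SAMM50, which inserts the TOMM40 barrel, and DNAJC15, of the import motor, fell with log2 fold changes of -0.66 and -0.44 (edgeR adjusted p = 5.02e-05 and 0.00132). Against them, MTCH1, an outer membrane insertase, rose with a log2 fold change of 1.42 (by edgeR, adjusted p = 1.82e-08), TIMM10B, the small TIM bound to TIM22, with 0.40 (edgeR adjusted p = 0.00167), and HSPA9, the motor HSP70 itself, with 0.34 (edgeR adjusted p = 0.00829).

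Of 7 tested matrix chaperones, 3 rose and 3 fell (42.9%), against 25.8% and 24.7% of all tested genes. HSPA9, which rose, and DNLZ, which fell, are also counted among the import components above. HSPD1, the HSP60 chaperonin, was at 1222, 1111 and 1101 CPM with DMSO and at 4618, 3947 and 4557 CPM with WFA (log2 fold change 1.93, edgeR adjusted p = 2.89e-09). Its co-chaperonin HSPE1 rose alongside, with a log2 fold change of 1.92 (by edgeR, adjusted p = 1.08e-09). TRAP1, the mitochondrial HSP90, and BCS1L, an AAA protein of complex III assembly, fell with log2 fold changes of -0.69 and -0.83 (edgeR adjusted p = 2.14e-05 and 3.95e-05). Of 16 other proteases and membrane quality control genes, 5 fell (31.2%) and 2 rose, against 24.7% and 25.8% of all tested genes. The peptidase NLN and the AAA protein ATAD3B had log2 fold changes of -0.63 and -0.82 (edgeR adjusted p = 0.000143 and 0.000447), while USP30, a deubiquitinase that restrains mitophagy, and the peptidase XPNPEP3 had 1.16 and 0.77 (edgeR adjusted p = 3.14e-06 and 9.21e-06).

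Among 17 tested genes of mitophagy and dynamics, 4 rose and 2 fell, neither a larger share than the 25.8% and 24.7% of all tested genes. SQSTM1, an autophagy adaptor, BNIP3L, a mitophagy receptor, and OPTN, another adaptor, had log2 fold changes of 2.32, 1.20 and 0.78 (edgeR adjusted p = 2.01e-09, 1.29e-07 and 0.00468). The phosphatase PGAM5 and the fusion GTPase MFN2 had -0.45 and -0.24 (edgeR adjusted p = 0.000856 and 0.0242), and the MFN2 call was lost without DMSO library 1, DMSO library 3, WFA library 1 or WFA library 2, at -0.21 to -0.24. Of 7 MICOS genes, which shape cristae, 1 fell (14.3%) and 0 rose, both smaller shares than the 24.7% and 25.8% of all tested genes. The gene that fell was IMMT (log2 fold change -0.52, edgeR adjusted p = 0.000125). MINOS1, APOO and APOOL were at -0.21, 0.38 and 0.15 (edgeR adjusted p = 0.0677, 0.11 and 0.229). With the replicate block MINOS1 (-0.21, edgeR adjusted p = 0.0384) and APOO (0.38, edgeR adjusted p = 0.0264) passed. Of 8 tested genes listed under mitochondrial stress signaling, 6 rose and 1 fell (12.5%), against 25.8% and 24.7% of all tested genes. Those that rose were ATF4, ATF5, DDIT3, TRIB3, SESN2 and GDF15. EIF2AK1 did not pass the test (log2 fold change -0.13, edgeR adjusted p = 0.214). Whether these rises came from stress of mitochondria or of other parts of the cell was not tested. DDIT3, SESN2, TRIB3 and GDF15, all known targets of the integrated stress response, had log2 fold changes of 1.66, 1.92, 1.34 and 2.27 (edgeR adjusted p = 1.07e-06, 1.18e-06, 8.38e-05 and 0.000165). GDF15 was scarce, with 8, 4 and 7 counts in the DMSO libraries and 22, 25 and 37 in the WFA libraries. KIAA0141, which encodes DELE1, the relay of mitochondrial stress cleaved by OMA1, was at -0.31 (edgeR adjusted p = 0.0179), a call lost without DMSO library 2 or WFA library 1 at -0.27 and -0.23.

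Of 11 tested regulators of mitochondrial biogenesis, 7 fell (63.6%) and 2 rose, against 24.7% and 25.8% of all tested genes. PPRC1, a coactivator of the PGC-1 family, was at 38.3, 44.6 and 42.7 CPM with DMSO and at 11.03, 13.05 and 11.2 CPM with WFA (log2 fold change -1.83, edgeR adjusted p = 1.59e-08). PPARGC1B, of the same family, and TFB2M, a mitochondrial transcription factor, fell with log2 fold changes of -1.62 and -1.26 (edgeR adjusted p = 5.49e-07 and 9.66e-07). The subunits of the GA-binding protein, GABPB1 and GABPA, rose with 0.92 and 0.54 (edgeR adjusted p = 6.03e-07 and 0.000327). Genes encoded by mitochondrial DNA were not analysed here.

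**Figure D4:**
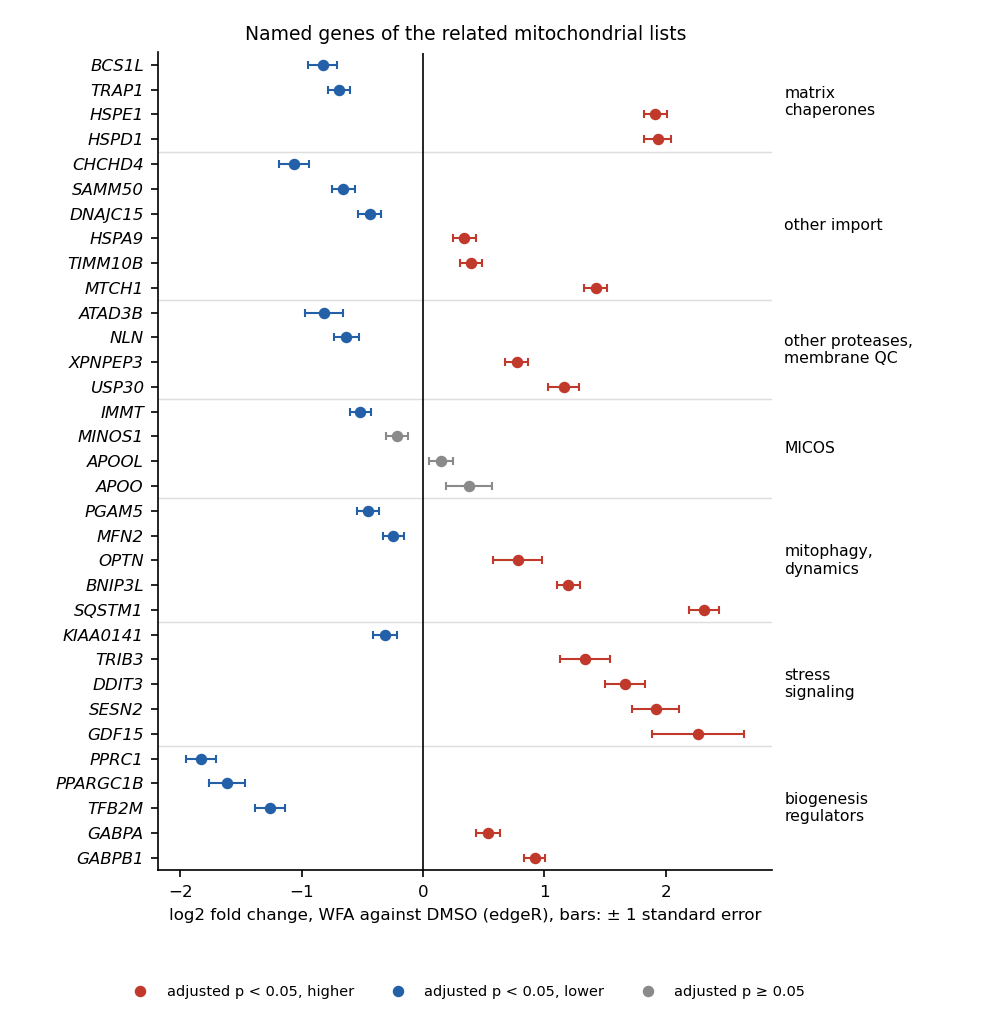
Log2 fold change, WFA against DMSO, from edgeR with bars of ±1 standard error, for the genes named from 7 related lists of mitochondrial function. Red points mark genes that rose, blue points genes that fell and grey points genes that did not pass the test; HSPD1, HSPE1, SQSTM1 and GDF15 lie near 2 and PPRC1 lies below -1.5.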

How the data were processed

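RNA-seq libraries of THP1 cells were compared between WFA and DMSO, with 3 libraries per group. The counts deposited by the authors, raw reads assigned to each gene, were used. A further 6 columns that the authors deposited hold scores (counts scaled by size factors, as whole numbers), and others hold their own fold changes and p-values. None of these was used. The submitters' processing notes name bcl2fastq 2.19, Trimmomatic, Bowtie2, Picard, featureCounts, DESeq2 and hg38. The annotation, strand setting and handling of multiply mapped reads are not given in the sources used here. The library kit, TruSeq RNA v2, does not mark strand.

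The counts were fitted over all genes with edgeR 4.0.16 in R 4.3.3, using TMM scaling, a minimum count of 10 in filterByExpr and quasi-likelihood tests, with Benjamini-Hochberg adjustment over 12854 genes and a threshold of 0.05. On counts simulated for 12721 genes of this comparison, 100.0% of 200 changed genes were recovered. These 200 were well counted and were given larger changes than most genes of the set show. Recovery of smaller changes was not tested, and recovery does not show how often unchanged genes are called. Partner ratios used log2 of counts plus 0.5 and an exact permutation test (scipy 1.17.1). Alternatives were RLE size factors, total counts, no filter, DESeq2 1.42.0, a robust fit, the replicate block and leaving out each library. Libraries held 11006035 to 13872810 counts, and those of 1 group differed by more than counting noise (chi-square per gene 6.00 to 11.2). Each SD is the spread between libraries. Each SE was derived from the log2 fold change and its edgeR F statistic, which draws its variance in part from other genes.

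The labels number the replicates 1 to 3, and a shared code in their descriptions pairs a DMSO with a WFA library. Deviations from the group means correlated across genes with r = 0.22, 0.33 and 0.25 for the same number, and between -0.26 and 0.004 for different numbers. Within a group these deviations cancel for each gene. Positive values for the same number therefore partly fix negative ones for different numbers. The members and lists were chosen with earlier results of these data known. Library values and full statistics were given for up to 8 rises and 8 falls by log2 fold change and for partners that differed in direction or call, and other members by fold change and p, with library values added for some. From each related list, up to 4 genes with the smallest p and up to 2 against its majority were named. Gene positions and exon overlaps are from GENCODE 29 and promoters from RefSeq. 1 marker of other cell types is not reported here.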

Additional observations from a re-analysis of the deposited data

How the results depend on the processing

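All 19 calls of the set were kept with RLE size factors, no filter, DESeq2, the robust fit, total counts and the replicate block. Total counts added falls of TOMM20, GRPEL2, PMPCB and YME1L1, and the replicate block added TOMM20 (-0.22) and GRPEL2 (-0.23) and changed no other call of the set. Without 1 library, calls were lost for TOMM6, TIMM13 and CLPX and gained for TOMM20 (without WFA library 2, -0.30) and GRPEL2 (without WFA library 3, -0.31). The median log2 fold change of the set was -0.37 with RLE, with no filter and with DESeq2, -0.44 with total counts, which moved the median of all genes to -0.06, and between -0.40 and -0.32 without 1 library. Total counts moved the calls over all genes from 3311 higher and 3178 lower to 2763 and 3875. Signs turned for values near 0: TOMM7 (-0.0048) and TIMM8B (-0.025) with total counts, and SPG7, which lay between -0.064 and 0.059 without 1 library. The TOMM40/TOMM40L change lay between -0.11 and 0.084 without 1 library, and that of CLPX/CLPP between -0.23 and 0.085. In the related lists, the block gave 5 rises of other import components, and 1 rise (APOO) and 2 falls (IMMT and MINOS1) in MICOS. Total counts gave 8 falls of other proteases and 2 each in MICOS and stress signaling. Without 1 library, falls went down to 1 in mitophagy and dynamics and to 0 in stress signaling, against 2 and 1. The block leaves 2 residual degrees of freedom instead of 4. It also took the variance of a gene wholly from genes of similar level, and called 3877 genes higher and 3708 lower. TIMM22, listed at 0, could not be tested.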
